A study of Caenorhabditis elegans with 4 samples.

Results

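The ZFP-1 binding sites described here are the peaks of chromosome IV whose midpoint lay in either of 2 large windows of piRNA genes. The first window ran from 4.5 Mb to 7 Mb and the second from 13.5 Mb to 17.2 Mb, on WormBase build WS220. Members were picked by position and not by peak values, but with earlier results of these data known. The series list, a peak list of the whole study, held 480 such peaks among 2003 on chromosome IV and 13878 in all. The same windows held 154 of 3559 peaks in the list of ChIP replicate 1 and 245 of 6371 in the list of ChIP replicate 2. The first window held 298 of the 480 and the second 182.

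Chromatin came from whole Caenorhabditis elegans of the wild-type strain N2, collected as L3 larvae and described in the labels as males and hermaphrodites mixed, with a growth temperature of 20 degrees Celsius. The labels give 2 samples immunoprecipitated with a rabbit polyclonal antibody against ZFP-1 and 2 samples of input DNA. Whole larvae hold germline and somatic nuclei together, so the peaks are not assigned to a tissue. No label tells whether replicates 1 and 2 were grown separately, and their spread may then be technical only.

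Piwi-interacting RNAs of C. elegans, called 21U-RNAs, are short germline RNAs bound by the Argonaute protein PRG-1 and act in the silencing of foreign and unwanted transcripts. Most are made from a very large number of small, separate transcription units that crowd into broad clusters on chromosome IV, between and within ordinary genes. ZFP-1 is a chromatin protein with PHD zinc fingers, the worm relative of mammalian AF10 (MLLT10), and works with the histone H3 methyltransferase DOT-1.1. It is known for binding near the promoters of active genes and was first linked to RNA interference.

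The placing of piRNA genes on this chromosome could be checked by name. In the RefSeq gene table of assembly WBcel235, 14714 of 15363 genes of the piRNA class lay on IV, which is 95.8%. Chromosome V, the next, held 202. That table is on another build than the peaks, so its positions were not set against the windows or the peaks, and no peak was assigned to a gene. The windows therefore stand as positions given for the clusters, unchecked on WS220, and each site is named by its WS220 coordinates.

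ZFP-1 peaks were sparse in the second piRNA window and near the average of the chromosome in the first. In replicate 1 the density was 37.6 peaks per Mb in the first window, 16.2 in the second and 34.7 over the rest of IV. In replicate 2 it was 56.4, 28.1 and 59.8 peaks per Mb in the same order. In the series list it was 119, 49.2 and 135 peaks per Mb. In all 3 lists the second window had the lowest density of the 5 stretches into which the windows divide the chromosome.

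The second window carried 0.468 times the density of the rest of IV in replicate 1 (95% interval 0.350 to 0.615) and 0.470 times in replicate 2 (0.379 to 0.579). A two-sided exact binomial test, which set the number of peaks against sequence length, gave Benjamini-Hochberg adjusted p = 2.38e-08 and 6.99e-14, over 42 tests. The series list gave a ratio of 0.364 (0.310 to 0.425, adjusted p = 8.39e-47 by the same exact test), but it is not independent of the replicates. These tests and intervals take each peak as independent, while neighbouring peaks are not, so the p-values are too small. With 2 libraries as the units, an exact sign-flip permutation test cannot go below 0.5.

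No density difference was shown for the first window. Its ratio to the rest of IV was 1.08 (0.856 to 1.36) by replicate 1, 0.943 (0.781 to 1.13) by replicate 2 and 0.882 (0.777 to 1.00) by the series list, with adjusted p = 0.684, 0.752 and 0.106 by the exact binomial test. The direction differed between the replicates. These intervals do not show that the densities are equal.

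The difference between both windows was itself tested. The second held 0.431 times the density of the first in replicate 1 (0.307 to 0.603), 0.498 times in replicate 2 (0.383 to 0.647) and 0.413 times in the series list (0.341 to 0.498). The adjusted p was 1.31e-06, 4.16e-07 and 1.19e-20 by the exact binomial test. Counted as one, the windows held 0.716 times the density of the rest of IV in replicate 1 (0.590 to 0.865, adjusted p = 0.00128 by the exact binomial test). In replicate 2 the joint ratio was 0.661 (0.569 to 0.766, adjusted p = 8.26e-08 by the same exact test). The joint value thus averages a sparse window and one for which no difference was shown.

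**Figure D1:**
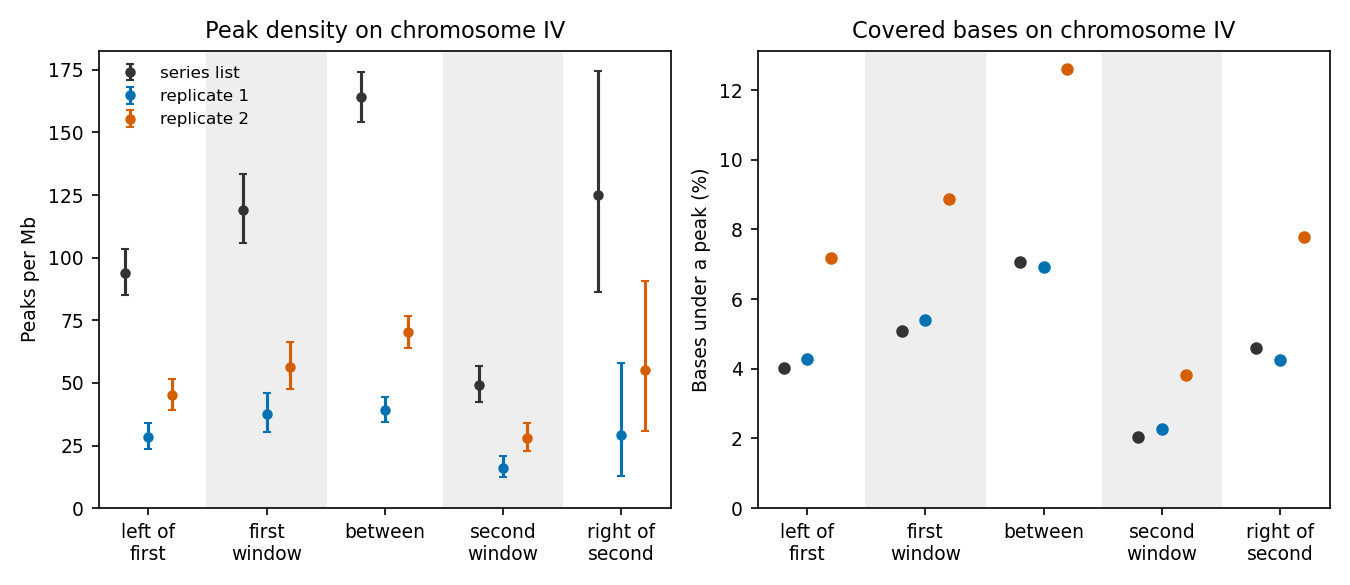
Left, ZFP-1 peaks per Mb in the 5 stretches of chromosome IV, for the series list and each replicate list, with exact 95% Poisson intervals that cover counting error over peaks only. Right, percent of bases under a peak in the same stretches; grey bands mark the piRNA windows, and the second window is lowest in all 3 lists, at 49.2, 16.2 and 28.1 peaks per Mb.

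The rest of the chromosome was itself uneven, and the comparison of the first window turned on its neighbour. The stretch between the windows, which spans the chromosome centre, held 164 series-list peaks per Mb, and the stretch left of the first window held 94.0. The first window, at 119, lay above the left stretch (ratio 1.27, adjusted p = 0.00558, exact binomial test) and below the central one (ratio 0.727, adjusted p = 2.76e-06, exact binomial test). The second window lay below both, at 0.523 times the left stretch and 0.300 times the central one. The short stretch of 0.272 Mb right of the second window held 34 peaks, or 125 per Mb. All these values are of the series list. In replicate 1 the first window, at 37.6 peaks per Mb, was close to the central stretch at 39.2 and above the left one at 28.4. In replicate 2 it held 56.4, against 70.2 in the central stretch and 45.1 in the left one. These replicate comparisons were not tested.

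Bases under a peak were also fewest in the second window. Peaks covered 5.10% of the first window and 2.05% of the second in the series list, against 5.80% of the rest of IV. Replicate 1 covered 5.39%, 2.26% and 5.79% of these, and replicate 2 covered 8.87%, 3.82% and 10.3%. The second window thus had the smallest covered share in each list, and replicate 1 put its ratio to the rest of IV at 0.390, replicate 2 at 0.370 and the series list at 0.353. No test was run on bases, since those of 1 peak are not independent.

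Within the windows, peaks were unevenly spread, and both replicates had the same richest 500 kb bin in each window. Along the first window, the series list held 46, 42, 103, 43 and 64 peaks in its successive 500 kb bins. Replicate 1 held 17, 11, 33, 15 and 18, and replicate 2 held 26, 17, 47, 19 and 32. The third bin, from 5.5 Mb to 6 Mb, was the richest in every list.

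In the second window the 7 full bins of 500 kb held 30, 27, 46, 12, 17, 33 and 10 series-list peaks. Replicate 1 held 10, 11, 16, 4, 5, 10 and 3 in them, and replicate 2 held 18, 17, 28, 7, 10, 18 and 3. The bin from 14.5 Mb to 15 Mb led in all lists, and the bin from 16.5 Mb to 17 Mb was the lowest of the 7 in all lists. All 7 lay below the median of 61 peaks over the 162 such bins of the 5 autosomes, and 6 of the 7 were among the lowest 25% (40 peaks or fewer). Of the 5 bins of the first window, 3 lay below that median and 0 in the lowest 25%. This is a description, without a test.

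At a scale of 100 kb the lists differed in detail. The richest series-list bin of the first window, from 5900000 to 5999999, held 34 series-list peaks, 9 replicate 1 peaks and 11 replicate 2 peaks. Replicate 1 had its richest bin from 5600000 to 5699999, with 10 peaks, and replicate 2 from 5700000 to 5799999, with 13. That of the second window, from 14800000 to 14899999, held 16, 7 and 11 and was the richest in each list. The poorest bins by the fixed rule, the leftmost of those with 0 series-list peaks, ran from 4900000 to 4999999 and from 16200000 to 16299999, and neither replicate had a peak midpoint in them. The median bin held 11 series-list peaks in the first window (25 bins) and 4 in the second (37 bins), against 15 in the stretch between the windows (65 bins) and 9 in the left stretch (45 bins). Each window had 2 bins with no series-list peak, while the left and central stretches had 0.

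Counts per 100 kb bin correlated between the replicates with Pearson r = 0.79 and Spearman rho = 0.87 over the 25 bins of the first window. Over the 37 bins of the second, r was 0.94 and rho was 0.91. These describe agreement across positions, which share both libraries and are not replicates. The 5 richest of 25 bins held 38.6% of the first window's peaks, and the 5 richest of 37 held 36.8% of the second's. The mean series-list count per bin was 11.9 (standard deviation 7.80) in the first window and 4.92 (4.11) in the second. It was 9.40 (5.99) in the left stretch and 16.4 (6.46) in the central one. Uneven counts were thus also seen in the left stretch.

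**Figure D2:**
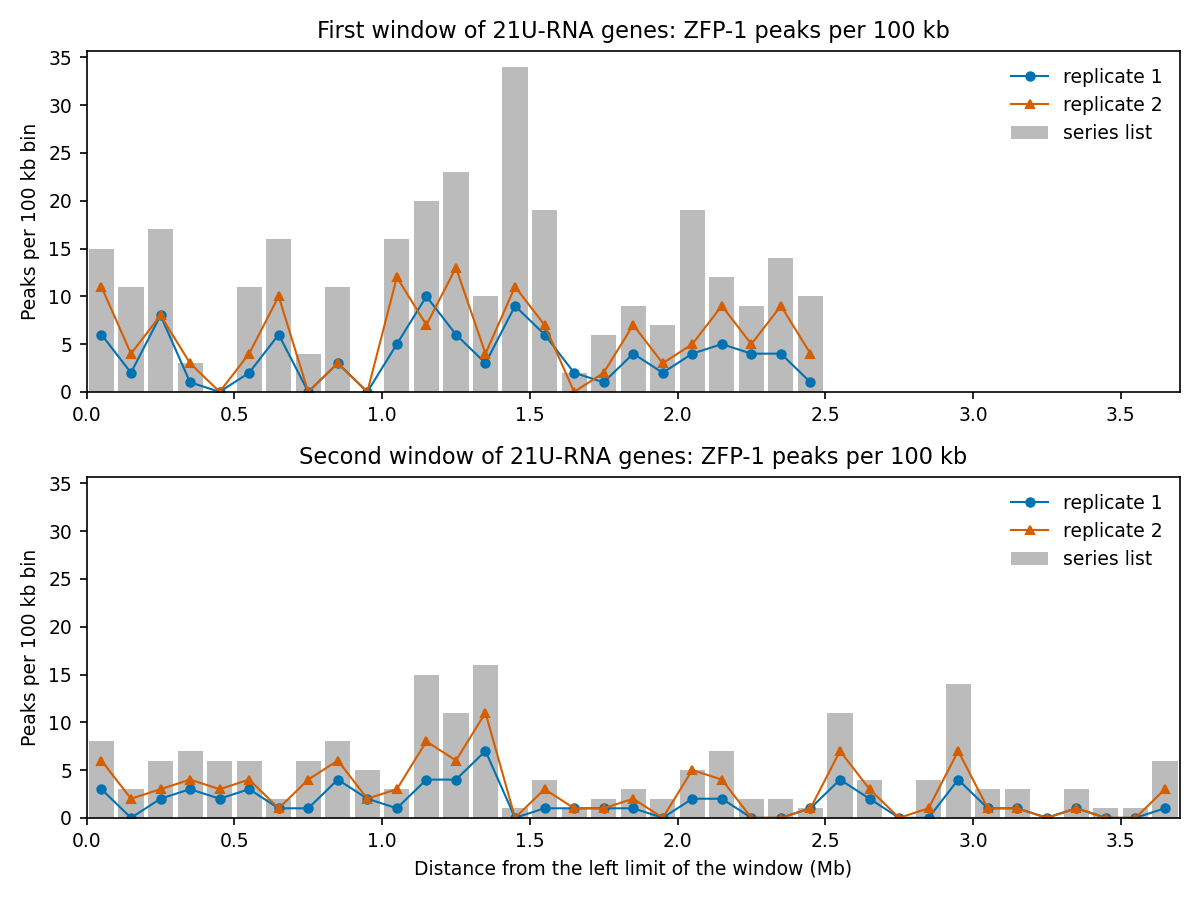
ZFP-1 peaks per 100 kb bin along each piRNA window, against distance from its left limit in Mb; grey bars are the series list, and circles and triangles are replicates 1 and 2. The highest bar reaches 34 peaks in the first window and 16 in the second. Between the replicates, Pearson r is 0.79 in the first window and 0.94 in the second. Spearman rho is 0.87 and 0.91, and the difference between the windows was not tested.

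Long stretches without any series-list peak were common in the second window. Of the 20 longest such stretches on chromosome IV, 12 lay in the second window, which makes up 21.2% of the span, and 3 in the first, which makes up 14.3%. The left stretch held 4 and the central one 1. Stretches of 50 kb or more numbered 26 in the second window and filled 62.7% of it. They numbered 8 in the first window and filled 27.3%. The left stretch was close to that, with 21 filling 30.6%, while the 6 in the stretch between the windows filled 6.25%.

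The longest peak-free stretch of the chromosome lay in the first window, from 4880995 to 5063462 (182.5 kb), and was the third longest on the autosomes. In each replicate, 1 peak reached into it. That of replicate 1 also met the bordering series-list peak, from 4880664 to 4880994, and had its midpoint in the stretch. The replicate 2 peak had its midpoint outside. The next in that window ran from 5394904 to 5507789 (112.9 kb) and from 6657824 to 6747604 (89.8 kb). In the second window the longest ran from 16663995 to 16845406 (181.4 kb), from 16181307 to 16354410 (173.1 kb) and from 15107530 to 15259510 (152.0 kb). They ranked 2, 3 and 4 on the chromosome. Replicate peaks reached into their margins, but 0 replicate midpoints fell inside any of these 3. Without read depth, a stretch with no peak is one where none was listed, not one shown to be unbound, and no peak list of the input was at hand to set beside it.

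Typical gaps were longer in the second window as well. Gaps and long peak-free stretches come from the same peaks as the densities. They largely restate the low density and are not separate support for it. The gap from the end of a peak to the start of the next had a median of 5376 bp there in the series list (interquartile range 1091 to 22549 bp), 2230 bp in the first window (655 to 7462 bp) and 1659 bp over the rest of IV (460 to 8287 bp). The medians in replicate 1 were 37544, 9817 and 11820 bp, and in replicate 2 they were 10491, 4622 and 5334 bp. In each list the second window had the longest median gap of these 3, while the first window lay below the rest of IV in both replicates and above it in the series list.

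Gaps above the chromosome's own median, which by construction are 50.0% of all gaps in each list, made up 66.9% of those in the second window in the series list (121 of 181). They were 47.6% over the rest of IV (adjusted p = 4.33e-06 by a two-sided Fisher's exact test). In replicate 1 the shares were 69.5% and 48.5% (adjusted p = 0.00876, Fisher's exact test). In replicate 2 they were 60.2% and 49.5%, which did not pass (adjusted p = 0.105, Fisher's exact test). The first window did not pass in any list, with Fisher's exact test giving an adjusted p of 0.684 for replicate 1, 0.550 for replicate 2 and 0.357 for the series list. Like the density tests, the Fisher's exact tests here and below take gaps or peaks as independent. Neighbouring ones are not, so these p-values are too small as well.

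Replicate peaks in the second window were narrower than over the rest of IV, while over all series-list peaks no such difference was shown. In replicate 1 the median width was 1000 bp in the second window (interquartile range 876 to 1287 bp), 1175 bp in the first (982 to 1504 bp) and 1264 bp over the rest of IV (992 to 1962 bp). In replicate 2 it was 1054 bp (950 to 1225 bp), 1157 bp (974 to 1639 bp) and 1245 bp (1000 to 1967 bp). The upper quartile showed the larger difference in both replicates. The rest of IV was uneven in width too. The left stretch had a median of 1166.5 bp and an upper quartile of 1480 bp in replicate 1, and 1128 and 1588 bp in replicate 2. The stretch between the windows had 1353 and 2076 bp, then 1310 and 2057 bp. The second window was thus closer in width to the left stretch than to the central one, and the first window was near the left stretch.

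Peaks wider than the chromosome's median, which are 49.9% of each replicate list by construction, made up 33.3% of replicate 1 peaks in the second window (20 of 60) and 54.0% of the rest of IV (adjusted p = 0.00899, Fisher's exact test). In replicate 2 they made up 28.8% (30 of 104) and 54.0% (adjusted p = 6.92e-06, Fisher's exact test). The first window lay between, with 43.6% in replicate 1 and 46.1% in replicate 2, and did not pass (adjusted p = 0.161 and 0.174, Fisher's exact test). In the series list, where 50.0% lie above the median by construction, the shares were 51.0% in the first window, 49.5% in the second and 49.8% elsewhere, with adjusted p = 0.831 and 0.938 by Fisher's exact test. Among the better-scoring 50% of the series list, however, 37.6% of second-window peaks and 51.1% of the others were above the median of that subset (adjusted p = 0.0256, Fisher's exact test). In the second window, 59 of the 60 replicate 1 peaks met a replicate 2 peak. The tests of both replicates thus rest largely on the same sites.

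The narrow replicate peaks went with fewer peaks of the series list under each. In replicate 2, 17.3% of peaks in the second window held 2 or more series-list peaks, 24.8% did in the first, 29.1% in the left stretch and 40.4% in the stretch between the windows. In replicate 1 the shares were 16.7%, 23.4%, 21.9% and 44.3%. Among peaks that held exactly 1, the median width was 971 bp in the second window and 1140 bp over the rest of IV in replicate 1, and 988 and 1050 bp in replicate 2. With that restriction, added after seeing the data, 49 peaks of replicate 1 and 85 of replicate 2 remained in the second window, and its difference in the share of wide peaks was -17.9 percentage points in replicate 1 and -8.12 in replicate 2. Neither passed (adjusted p = 0.0653 and 0.336, Fisher's exact test). For both windows together the restricted difference was -14.3 points in replicate 1, which passed, and -1.78 in replicate 2, which did not (adjusted p = 0.0325 and 0.809, Fisher's exact test).

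**Figure D3:**
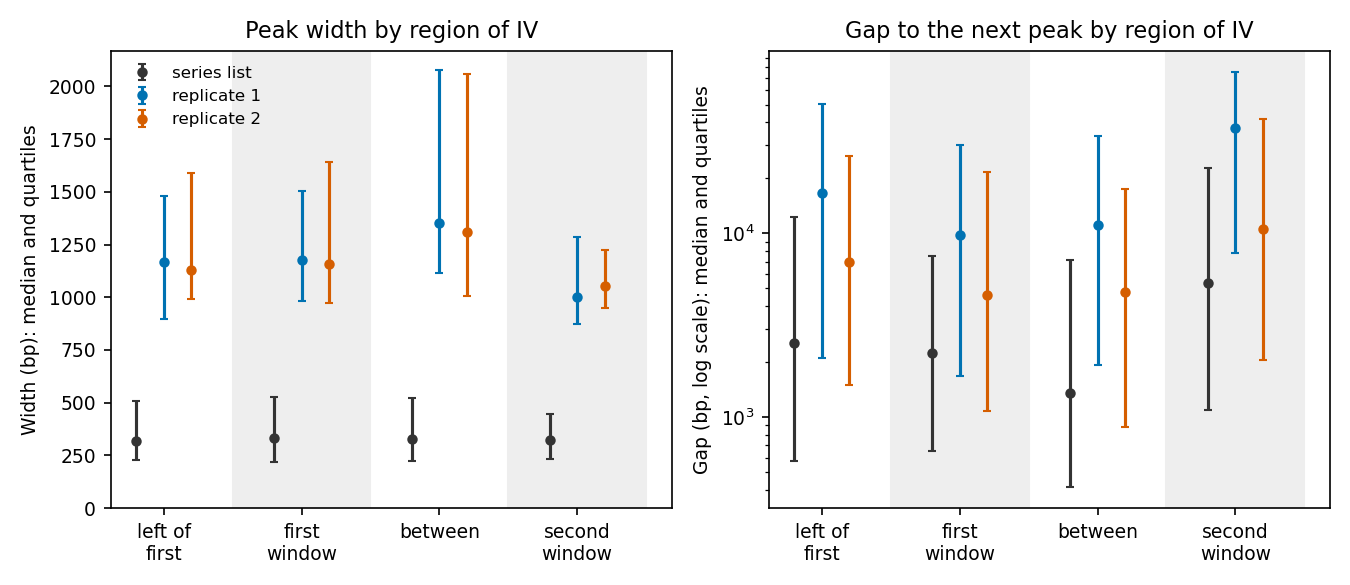
Median and quartiles of peak width (left, bp) and of the gap to the next peak (right, bp, log axis) in 4 stretches of chromosome IV for the 3 lists; grey bands mark the piRNA windows. Replicate peaks of the second window have medians of 1000 and 1054 bp, and its median gaps are the longest of the 4 stretches in each list.

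In the series list, peaks of both windows counted as one scored higher than those of the rest of IV. Scores are the authors' own per peak, of unstated scale, and were compared within 1 list only. The median series-list score was 20.98 in the first window, 25.2 in the second and 17.8 over the rest of IV. With both windows together, 55.0% of peaks (264 of 480) scored above the chromosome's median, against 48.4% of the rest and 50.0% by construction (adjusted p = 0.0297, Fisher's exact test). Neither window passed on its own (adjusted p = 0.132 for the first and 0.125 for the second, Fisher's exact test). The median score was 21.9 in the left stretch and 16.8 in the stretch between the windows, so the windows stood above the central stretch, and the first window was not above the left one.

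The replicate lists did not show that difference. Replicate 1 had 52.6% of window peaks above its median score and 48.8% of the others, and replicate 2 had 51.4% and 49.4%, where 49.9% lie above by construction (adjusted p = 0.672 and 0.766, Fisher's exact test). The highest-scoring 10.0% of the series list took in 70 of the 480, or 14.6% (95% interval 11.5 to 18.1%), and 11.8% of the rest of IV (10.2 to 13.5%). Of the first window's peaks 15.4% were in that top share, and of the second's 13.2%. The replicates did not show this excess. The highest-scoring 10% of the replicate 1 list took in 8.44% of window peaks (13 of 154) and 10.997% of the rest of IV (43 of 391). That of replicate 2 took in 11.02% (27 of 245) and 10.98% (74 of 674). In each list the 95% intervals of windows and rest overlapped. In the windows, 6 replicate 1 peaks and 23 replicate 2 peaks scored 3100 or more, and 5 and 21 of these were tied at exactly 3100.

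No difference in replicate support was detected. Of the 480 peaks, 191 met a peak in both replicates, which is 39.8% (35.4 to 44.3%), against 38.4% of the whole series list and 39.5% of chromosome IV. The share was 40.6% in the first window and 38.5% in the second, with no difference from the rest of IV shown for either (adjusted p = 0.831 and 0.873, Fisher's exact test). A further 144 met replicate 2 alone, 4 met replicate 1 alone, and 141 (29.4%) met neither. Over the rest of IV, 33.9% met replicate 2 alone and 25.9% met neither. When the overlap had to cover 50% of the shorter peak, the share met in both was 38.96% in the windows and 37.89% elsewhere. With 50% reciprocal overlap it was 5.62% and 3.74%. The median width on IV was 325 bp in the series list, 1235 bp in replicate 1 and 1189 bp in replicate 2. A series-list peak of median width thus cannot cover 50% of a replicate peak of median width, so the low reciprocal share is not a measure of replicate support. The share met in replicate 2, with replicate 1 left out, was 69.8% in the windows and 73.3% elsewhere. Peaks of the windows met in both replicates had medians of 85.8 in score and 515 bp in width, and those met in neither had medians of 7.31 and 202 bp. The latter rest on the series list alone.

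Between the replicates, 148 of the 154 replicate 1 peaks in the windows met a replicate 2 peak, which is 96.1% (91.7 to 98.6%). In the other direction, 139 of 245 did, or 56.7% (50.3 to 63.0%). Over the rest of IV these shares were 97.7% and 52.5%. The 6 replicate 1 peaks that lacked a partner scored 69.9 at the median, and the 148 with one scored 305. Over the 137 pairs in which each peak was the other's best overlap, log10 scores correlated with Pearson r = 0.71 and Spearman rho = 0.76, across peaks and not across samples. Over 345 pairs of the rest of IV, r was 0.72 and rho 0.79.

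The 5 sites with the highest series score that both replicates shared in the first window all lay right of 5.7 Mb. The leading one, from 6838588 to 6839651 (1064 bp), scored 215.70, above 99.8% of the series list. It lay under a replicate 1 peak of 1350 bp with a score of 740 and a replicate 2 peak of 1589 bp at the tied score of 3100. The second, from 6784943 to 6786263 (1321 bp), scored 213.46, and its replicate peaks scored 1167 and 3100. Both thus scored above at least 79.5% of the replicate 1 list and 91.8% of the replicate 2 list.

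The third site, from 5752623 to 5754601 (1979 bp), scored 199.03 and was also the third widest of the window. Its replicate 1 peak scored 3142, above 99.9% of that list, and its replicate 2 peak scored 3100. The fourth ran from 5973669 to 5974647 with 198.71 and the fifth from 6576537 to 6577521 with 197.31. The fourth lay under a replicate 2 peak of 5177 bp that held 4 series-list peaks, while its replicate 1 peak was 1346 bp wide.

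In the second window the leading site, from 16501360 to 16502402 (1043 bp), scored 201.96, above 99.4% of the series list, and its replicate peaks scored 652 and 2812. The next, from 16022397 to 16022831 (435 bp), scored 188.61, but its replicate 1 peak had a score of 200, above only 49.2% of that list, and its replicate 2 peak scored 1483. The remaining 3 were from 14356037 to 14356511 at 184.12, from 14786549 to 14787336 at 180.28 and from 16663500 to 16663994 at 178.43. The last of these borders the longest peak-free stretch of the window. Each of these 5 sites but the first was the only series-list peak under its replicate 2 peak, and each of the 5 was the only one under its replicate 1 peak.

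The widest sites were broad in both replicates. In the first window, 2 series-list peaks of 2070 bp each, from 5652799 to 5654868 and from 5655709 to 5657778, lay under 1 replicate 1 peak from 5651292 to 5658215 (6924 bp) and 1 replicate 2 peak from 5651455 to 5660760 (9306 bp). Both replicate peaks scored 3100 and were the widest of the window in their list. The replicate 2 peak held 6 series-list peaks.

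In the second window, the widest series-list peak ran from 16489646 to 16493501 (3856 bp) and was the widest of chromosome IV, with a score of 130.53. It lay under the widest replicate 2 peak of the window, from 16487850 to 16497330 (9481 bp), where replicate 1 listed 3 peaks, the widest of 3992 bp. The next ran from 14619796 to 14622627 (2832 bp) and lay under the widest replicate 1 peak of the window, from 14619294 to 14623837 (4544 bp). The third ran from 14032463 to 14034609 (2147 bp), under replicate peaks of 2509 and 2654 bp that both scored 3100. A few broad replicate peaks thus lay in the second window among the narrow ones.

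Densities were also read at the same relative position on the other autosomes, with no test, since arms and centres differ along every chromosome. At the position of the first window, the density in the series list was 172 peaks per Mb on I, 149 on II, 183 on III and 125 on V, against 119 on IV. As a percentage of each chromosome's own mean density, IV stood at 104% and the others at 114% to 128%. In replicate 1, IV stood at 121% and II, III, I and V at 122% to 132%. In replicate 2, IV stood at 107% and the others at 119% to 130%. IV was the lowest of the 5 by this measure in all lists, by a narrow margin in replicate 1.

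At the position of the second window it was 92.4 peaks per Mb on I, 104 on II, 118 on III and 39.95 on V, against 49.2 on IV. As a percentage of the chromosome's mean density, IV stood at 42.9% and V at 40.9%, while I, II and III stood between 65.7% and 79.5%. In replicate 1, IV stood at 52.0% and V at 38.9%, and in replicate 2 at 53.4% and 38.3%. The density at this position was thus lower on V than on IV in each list, also per Mb. Median widths there were 1111 bp on V and 1193 to 1233 bp on I, II and III in replicate 1, against 1000 bp on IV. In replicate 2 they were 1044 bp on V, 1054 bp on IV and 1078 to 1144 bp on the others.

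**Figure D4:**
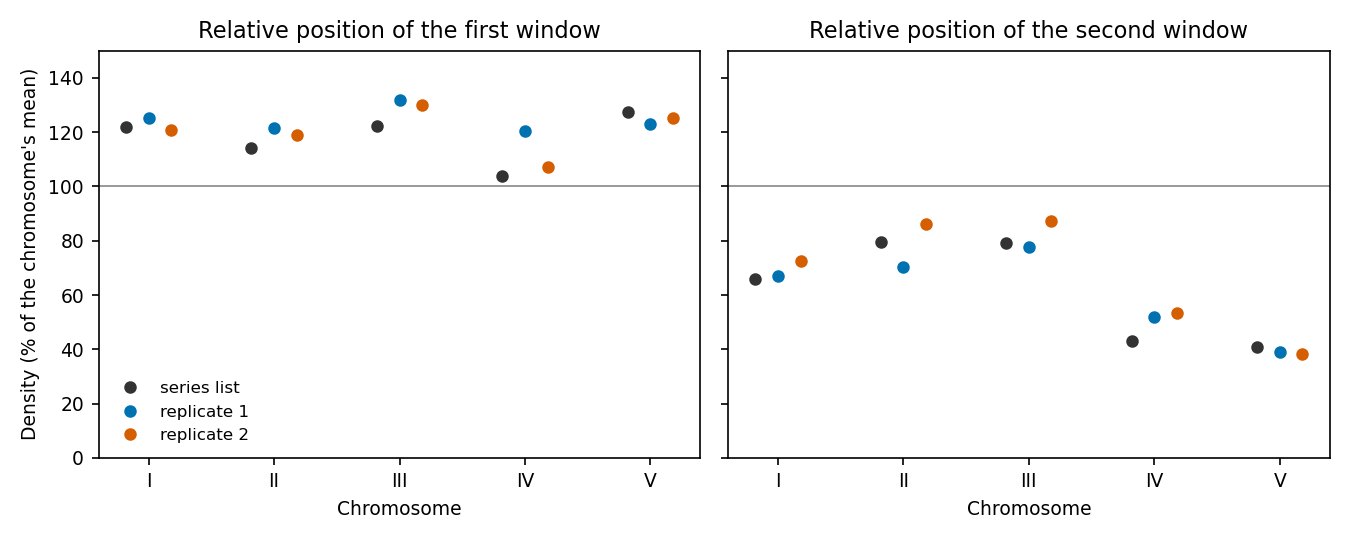
Peak density at the relative position of the first (left) and second (right) piRNA window on the 5 autosomes, as percent of each chromosome's mean density (line at 100), for the 3 lists. At the second position IV stands at 42.9% and V at 40.9% in the series list, both below I, II and III.

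The window limits did not fall on a sharp change everywhere. Within 250 kb of the left limit of the first window the series list held 35 peaks inside and 36 outside, and at its right limit 31 inside and 42 outside. Replicate 1 held 13 and 11, then 9 and 13, at these limits, and replicate 2 held 20 and 12, then 18 and 17. At the left limit of the second window the series list held 16 inside and 31 outside, and at its right limit 8 inside and 29 outside. Replicate 1 held 5 and 8, then 1 and 8, at the limits of the second window, and replicate 2 held 10 and 15, then 3 and 14. Counts thus dropped on entering the second window from either side in each list.

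The members nearest to the limits differed widely in score. At the left limit of the first window, the peak just inside ran from 4505114 to 4505272 with a score of 2.52 and the one just outside from 4482620 to 4482873 with 19.18. At its right limit the last inside ran from 6988160 to 6988499 with 19.12 and the first outside from 7011777 to 7012045 with 20.98. The second window opened with a peak from 13502755 to 13503283 scoring 82.76, after one outside from 13493621 to 13493964 scoring 12.85. It closed with one from 17174075 to 17174274 scoring 9.29, before one outside from 17206570 to 17206827 scoring 12.06.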

How the data were processed

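ChIP-seq peak lists of 2 ZFP-1 samples and 1 list of the whole series were analysed, as the authors deposited them: start, end and 1 score per peak, in GFF3. Positions follow the build WormBase WS220, per the file headers. They count from 1 and include the start and end base. The caller is written as MACS in the replicate lists and MACS v2 in the series list, per the file contents. BWA and ce10 are listed in the submitters' processing notes. No scale is stated for the score deposited by the authors. Whether the series list used pooled reads, and whether input served as control, is not given in the sources used here. For the input samples no peak list was analysed. No read counts were used, so depth is unknown. Intervals on shares are exact Clopper-Pearson 95% intervals, and all intervals cover counting error over peaks only.

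Members, lists and tests were chosen with earlier results of these data known. Midpoints placed peaks in regions; the end of IV was taken as the last base under a peak, 17472254. Overlap needed 1 bp, and overlap counts equalled those of bedtools 2.31.1. Densities were compared by exact two-sided binomial tests and shares by two-sided Fisher's exact tests, with Benjamini-Hochberg adjustment over 42 tests; those of the second window against the first were added after seeing the data. Named regions were, per window, the 5 best-scoring peaks met in both replicates, the 3 widest, the widest of each replicate, the 3 longest peak-free stretches, the richest and poorest 100 kb bin, and the peaks nearest the limits. Alternatives were the list, the score threshold, merging, window limits, reference regions and the overlap criterion. Except for tests already among the 42, an alternative's p-value was adjusted in the place of its main test. The number of alternatives was thus not corrected for. The code ran under Python 3.11.15 with scipy 1.17.1, numpy 2.4.6, pandas 2.3.3 and matplotlib 3.10.9, and was tested on simulated data. No sequences are shown, since no genome of build WS220 was used here.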

Additional observations from a re-analysis of the deposited data

How the results depend on the processing

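Over 14 results and 84 alternatives, 47 left the direction and the call, or an untested value within its error, as they were. The others follow, and their cause was not tested. Score subsets compare fewer peaks by construction. The low density of the second window (ratio 0.364) lost its call only in the highest-scoring 10% of replicate 1 (0.496), and the single-replicate lists gave 0.468 to 0.470. For both windows together (0.573; single replicates 0.661 to 0.716) the call was lost in the better-scoring 50% of replicate 1 (0.766) and in the highest-scoring 10% of replicate 1 (0.550) and replicate 2 (0.663). The first window (0.882; single replicates 0.943 to 1.08) turned above 1 among the top-scoring 10% in the series list (1.15) and replicate 2 (1.04), in the better-scoring 50% of replicate 1 (1.15) and replicate 2 (1.03), and against the left stretch (1.27); against the stretch between the windows it passed at 0.727.

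Covered-base ratios moved to 0.608, 0.930 and 0.390 in replicate 1 for both, the first and the second window, and to 0.370 in replicate 2 for the second. The share of wide peaks in both windows, above the rest by 0.581 percentage points, became -4.57 in the better-scoring 50%, -14.4 and -15.2 in replicates 1 and 2, -18.2 and -18.6 in their better-scoring 50%, and -14.3 and -1.78 in their peaks holding 1 series-list peak, the last alternative chosen after seeing the data. For the second window, -0.385 points became -13.5, -20.6, -25.2, -23.0 and -28.8 in the first 5 of these, the latter pair in the better-scoring 50%, all past the threshold, and 1.61 with windows 250 kb narrower.

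The gap difference of both windows, 9.90 points, fell to 5.49 and 1.96 in replicates 1 and 2 and 5.16 in the better-scoring 50%, and no longer passed; that of the second window, 19.2, fell to 10.7 in replicate 2. The score difference of 6.61 points became 3.24 (12.5% against 9.26%) for the highest-scoring 10% of chromosome IV, a cut other than the top 10% of the whole list, and 3.75 and 2.02 in replicates 1 and 2. The difference in the share met in both replicates, 0.330 points, ranged from -3.55 to 0.441 with either replicate left out. With 50% reciprocal overlap, 80.5% of replicate 1 peaks met replicate 2. No paired analysis was possible because peak lists were analysed for the 2 ChIP samples only, which are 1 group. Depth is unknown, so weak sites cannot be told from absent ones.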
